A study of Homo sapiens with 16 samples.

Results

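Glycosaminoglycan synthesis was described here through 36 enzymes and suppliers, followed in a pair of related human melanoma lines over 24 h of exposure to one compound. The set was a list of gene symbols, each of which matched exactly 1 of the 63677 Ensembl gene IDs in the count tables. All 36 were among the 20280 genes with enough reads to be tested. By role they comprised 6 genes of the linkage region, 6 that build the chondroitin chain, 8 that modify chondroitin and dermatan sulfate, 4 that build the heparan chain, 7 that modify heparan sulfate, 3 that supply precursors and 2 hyaluronan synthases. The list was drawn up with earlier results of these libraries known, so the values of the set are descriptions, and its counts are no evidence that the pathway was singled out.

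Glycosaminoglycans are long unbranched chains of alternating sugars. Chondroitin, dermatan and heparan sulfate are built in the Golgi on proteoglycan core proteins, starting from a short linker of xylose, galactose and glucuronic acid; the next sugar added decides whether the chain becomes chondroitin or heparan. Sulfotransferases and epimerases then modify the chain and set which growth factors, enzymes and matrix proteins it binds, whereas hyaluronan is made at the plasma membrane without a core protein or sulfate. Melanoma cells are known for a chondroitin sulfate proteoglycan, CSPG4, and for a hyaluronan-rich coat bound by CD44.

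UACC62P is a human melanoma line used here as the parent. UACC62R was derived from it through 2 months of culture with 2 uM vemurafenib, a drug against mutant BRAF, and was maintained in it. Poly(A) RNA was sequenced from each line untreated (0 h) and after 2, 6 and 24 h with 10 uM CCG-222740, a compound that blocks transcription through MRTF and SRF, giving 8 groups of 2 libraries. Because replicate 1 of the UACC62P 2 h label looked like UACC62R, it was left out: UACC62P at 2 h then rests on 1 library, and 15 libraries remained.

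As examples, the promoters of 5 members described below are printed, 5′ to 3′ on the gene's strand, from RefSeq on GRCh38.p14. The 5 were picked by no stated rule and do not stand for the set. Each spans 250 bases before the start site to 50 after it. They lie at chr7:151232233-151232532 (CHPF2, plus strand), chr2:219543048-219543347 (CHPF, minus), chr15:40470734-40471033 (CHST14, plus), chr15:101251999-101252298 (CHSY1, minus) and chr1:100894793-100895092 (EXTL2, minus). Capitals mark a metal response element core (in CHPF and CHST14) or an E-box (in CHSY1 and EXTL2). The CHPF2 promoter held none of the motifs searched.
CHPF2: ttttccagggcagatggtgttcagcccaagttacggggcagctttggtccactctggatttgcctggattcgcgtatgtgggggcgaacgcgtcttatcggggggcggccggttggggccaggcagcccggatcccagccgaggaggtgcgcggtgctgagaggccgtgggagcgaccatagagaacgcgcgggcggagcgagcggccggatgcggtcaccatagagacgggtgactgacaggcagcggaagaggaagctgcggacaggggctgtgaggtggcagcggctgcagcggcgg
CHPF: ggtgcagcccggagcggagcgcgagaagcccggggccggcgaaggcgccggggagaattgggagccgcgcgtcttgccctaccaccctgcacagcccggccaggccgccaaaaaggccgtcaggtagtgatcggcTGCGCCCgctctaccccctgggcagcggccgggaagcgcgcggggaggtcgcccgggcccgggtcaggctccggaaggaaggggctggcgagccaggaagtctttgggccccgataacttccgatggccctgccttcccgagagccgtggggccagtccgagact
CHST14: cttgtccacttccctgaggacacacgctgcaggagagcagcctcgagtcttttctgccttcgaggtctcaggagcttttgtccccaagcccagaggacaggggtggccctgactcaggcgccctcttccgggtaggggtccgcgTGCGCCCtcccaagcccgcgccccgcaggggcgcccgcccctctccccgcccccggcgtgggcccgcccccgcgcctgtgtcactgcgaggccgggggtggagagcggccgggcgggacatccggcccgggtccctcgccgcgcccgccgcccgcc
CHSY1: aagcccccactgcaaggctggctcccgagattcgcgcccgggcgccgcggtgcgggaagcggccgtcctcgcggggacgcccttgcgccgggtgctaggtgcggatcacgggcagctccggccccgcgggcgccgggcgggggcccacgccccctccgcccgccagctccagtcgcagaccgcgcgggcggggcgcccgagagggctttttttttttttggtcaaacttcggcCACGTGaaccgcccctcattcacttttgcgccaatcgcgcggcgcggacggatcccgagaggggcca
EXTL2: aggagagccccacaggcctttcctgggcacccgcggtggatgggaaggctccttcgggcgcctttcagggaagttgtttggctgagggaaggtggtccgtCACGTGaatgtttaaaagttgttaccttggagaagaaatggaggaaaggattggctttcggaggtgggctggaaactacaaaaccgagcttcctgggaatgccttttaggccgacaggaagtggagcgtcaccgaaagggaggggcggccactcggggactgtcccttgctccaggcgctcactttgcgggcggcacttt

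Promoter entries were found for 32 of the 36 members, without CSGALNACT1, EXT1, EXTL3 and HAS2. On both strands, the metal response element cores TGCACNC and TGCGCNC, letters bound by the zinc sensor MTF1, occurred in 10 of the 32 (31.2%), against 29.5% of all 35114 promoters of 300 bases. In CHPF and CHST14 the match was TGCGCCC, with its first base at -115 and -106 from the start site. The E-box CACGTG, read by basic helix-loop-helix factors, was present in B3GALT6, CHSY1, EXTL2, SLC35B2 and HAS3, that is 5 of 32 (15.6%), against 7.26% of all promoters; it stood at -17 in CHSY1 and -150 in EXTL2. The CArG box (CC, 6 of A or T, GG), the sequence that SRF binds, was found in UXS1 alone (3.12%, against 1.29% of all promoters). No member promoter held the ER stress element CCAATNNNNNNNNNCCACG (0.0769% of all promoters), the unfolded protein response core TGACGTGG (0.729%) or the heat shock letters GAANNTTC or TTCNNGAA (13.5%). The E-box and the unfolded protein response core share the letters ACGTG. The median GC content was 70.3% in the member promoters and 58.7% in all. These matches describe the letters of a window and no binding was measured.

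The 16 libraries held 25.9 to 33.3 M reads in genes, of which the members took 2592 to 3172 per 1 M. The melanocyte lineage was read from 6 markers (MITF, SOX10, MLANA, PMEL, TYR, DCT). Their summed level was 1140 to 1450 CPM (counts per 1 M reads in genes, scaled between libraries by TMM) in the 7 UACC62P libraries and 69.2 to 80.4 CPM in the 8 UACC62R libraries, where TYR, MLANA, PMEL and DCT were all under 0.5 CPM. In UACC62R 4 of the 6 defining transcripts of the labelled lineage were thus near 0, and their part in the differences between the lines was not tested. PMEL was low in UACC62P as well, at 1.26 to 3.40 CPM. Of 9 epithelial, endothelial and blood markers, 4 had no read in UACC62P and 3 none in UACC62R, and their sum reached at most 2.27 CPM. In bulk RNA, fewer cells of a kind and less RNA per cell cannot be told apart. No vehicle library was used here, vemurafenib in the medium is stated for untreated UACC62R but not for treated UACC62R, and 0 h libraries carry other label texts than treated ones: the compound, its vehicle, time in culture, vemurafenib and any batch cannot be told apart in comparisons with 0 h. Whether replicates were separate cultures is not in the labels; p-values then measure only how far these samples spread, and that spread may be technical.

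Members moved in opposite directions, and their number grew with time. Differences are given as log2 fold changes ± standard error, where 0 is no difference, and a gene was called at an adjusted p under 0.05 (edgeR's quasi-likelihood test, Benjamini-Hochberg over all genes tested). At 2 h, 1 of 35 members with reads in UACC62P passed (0.0444% of all genes did) and 1 of 36 in UACC62R (background 0.074%). The gene was CHPF2 each time. CHPF2 and CHSY3 were put on the list for their earlier values in these libraries, so their calls repeat what chose them and nothing is read from them. No other member was called at 2 h by edgeR or DESeq2. An unadjusted p under 0.05 in edgeR was found for 4 of 33 in UACC62P and 2 of 34 in UACC62R. Over all genes the shares were 4.32% and 4.21%. At 6 h in UACC62P, 1 member was higher and 4 were lower, where 0.848% of all genes were called higher and 0.671% lower. In UACC62R at 6 h, 2 were lower and none higher, against a background of 0.38% higher and 0.286% lower. At 24 h in UACC62P, 2 were higher and 5 lower (background 2.19% and 1.65%). In UACC62R at 24 h, 9 were higher and 10 lower of 36 (background 6.48% and 8.23%). Without CHPF2 and CHSY3, the members higher and lower numbered 1 and 2 at 6 h and 2 and 3 at 24 h in UACC62P, and 0 and 1 at 6 h and 9 and 8 at 24 h in UACC62R. The median log2 fold change of the members at 24 h was -0.018 in UACC62P and -0.02 in UACC62R, beside 0 and 0.006 over all genes, with 17 members above 0 and 18 below in UACC62P and 17 above and 19 below in UACC62R.

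The counts depended on the library left out above and on the pairing of libraries. With all 16 libraries, the counts at 2, 6 and 24 h were 0, 0 and 1 in UACC62P and 0, 0 and 4 in UACC62R; the 4 were CSGALNACT2, CHPF, CHST14 and HAS3. With the replicate number as a block, 8 members were called at 6 h and 13 at 24 h in UACC62P (6 higher and 7 lower), and 5 at 6 h in UACC62R. The share of all genes called rose with the block as well, to 6.98%, 12.1% and 2.79% in these comparisons, from 1.52%, 3.85% and 0.666% without it. When 1 library of a comparison was left out in turn, the called number fell to 2 of 5 at 6 h in UACC62P without 0 h replicate 1, 0 h replicate 2 or 6 h replicate 2, and to 4 of 7 at 24 h without 0 h replicate 1 or 24 h replicate 2. In UACC62R at 24 h it fell to 11 of 19 without 0 h replicate 2. The calls at 2 h were lost without any 1 of the libraries compared. The shares of all genes called with 16 libraries and without 1 library are not given here. The lower counts are thus not read as particular to the members.

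**Figure D1:**
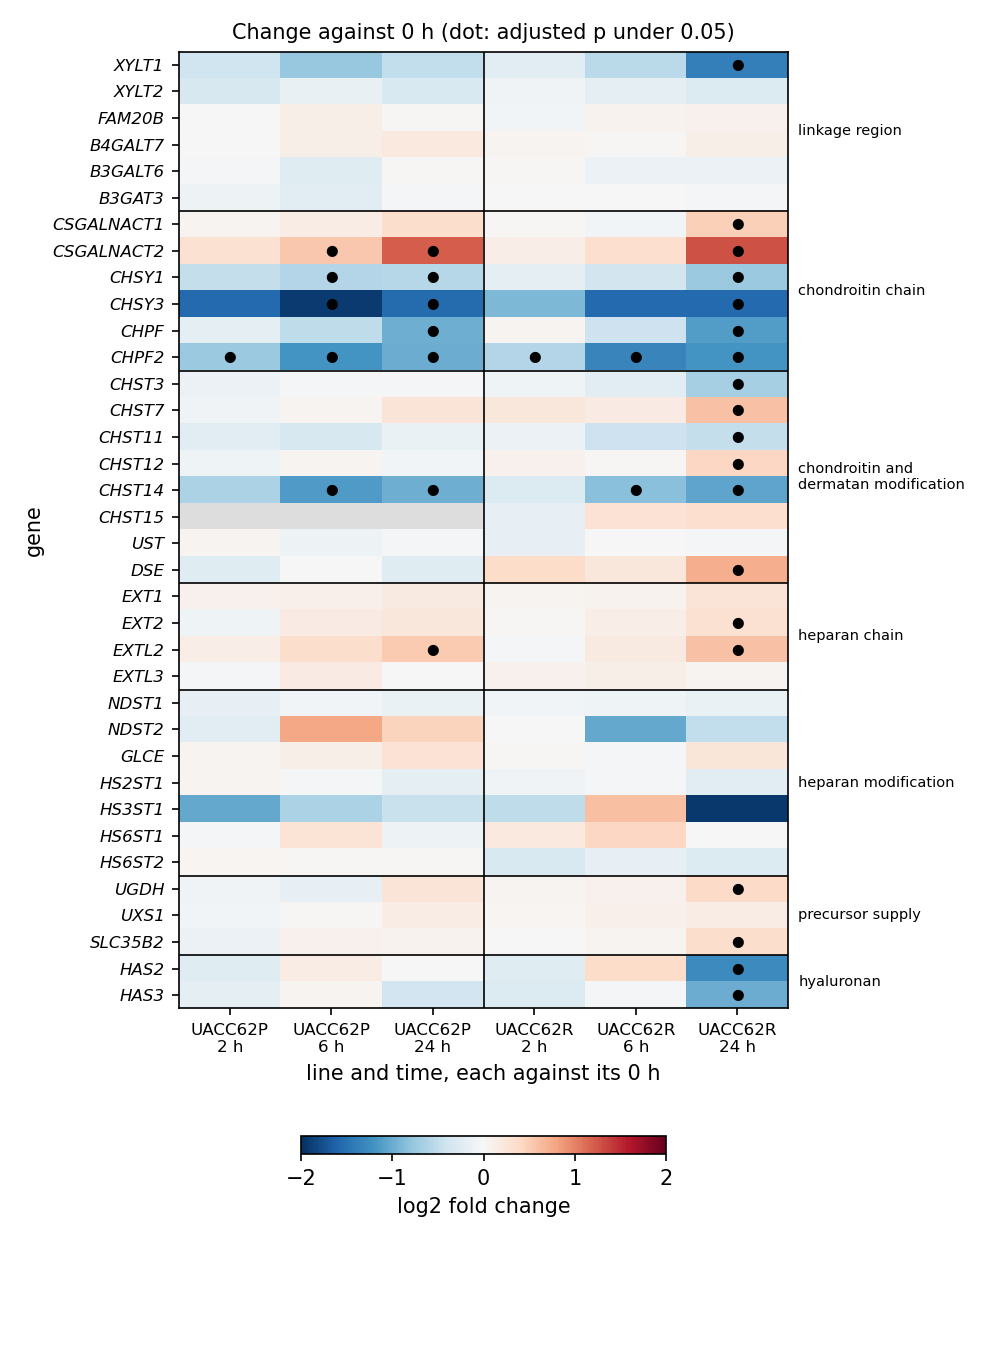
Log2 fold change of the 36 members (rows, grouped by role) at 2, 6 and 24 h against 0 h of the same line (columns), on a colour scale from -2 to 2. Dots mark an adjusted p under 0.05, those of CHPF2 and CHSY3 repeat the values that chose these genes, and grey cells mark CHST15, which had no read in UACC62P. The blue cells of CHSY1, CHSY3, CHPF and CHPF2 and the red cells of CSGALNACT2 lie in the chondroitin chain block, and the heparan modification block holds no dot.

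The linkage region, the shared first steps of chondroitin and heparan synthesis, changed little with the compound except at XYLT1 (ENSG00000103489), which adds the first xylose to the core protein. XYLT1 stood at 392 and 324 CPM in untreated UACC62P, at 272 CPM at 2 h, at 227 and 196 CPM at 6 h and at 272 and 233 CPM at 24 h. In UACC62R it stood at 34.4 and 45.1 CPM at 0 h, 27.1 and 41.7 CPM at 2 h, 22.4 and 32.2 CPM at 6 h, and 15 and 16 CPM at 24 h. Every treated library lay below both untreated ones in UACC62P; in UACC62R this held at 6 and 24 h and not at 2 h. XYLT1 fell in UACC62R at 24 h by 1.36 ± 0.21 on the log2 scale (adjusted p = 0.000653, edgeR), a call that held without each library in turn. In UACC62P its log2 fold changes were -0.76 ± 0.19 at 6 h and -0.50 ± 0.19 at 24 h, which were not called; both passed with the replicate block (adjusted p = 0.00601 and 0.0413, edgeR), and the first also in DESeq2 (adjusted p = 0.00238). The other 5 genes, XYLT2 (the second xylosyltransferase), the galactosyltransferases B4GALT7 and B3GALT6, the glucuronyltransferase B3GAT3 and the xylose kinase FAM20B, passed at no time in either line; with the block, XYLT2 passed at 24 h, with log2 fold changes of -0.30 ± 0.07 in UACC62P (adjusted p = 0.0068) and -0.27 ± 0.06 in UACC62R (adjusted p = 0.00372, edgeR).

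Within the chondroitin chain, the polymerase genes CHPF and CHSY1 were lower at 24 h in both lines, while the initiating transferase CSGALNACT2 was higher. In UACC62P, 1 of the 6 chain genes was higher and 3 were lower by 6 h (background 0.848% and 0.671%), and 1 and 4 by 24 h (2.19% and 1.65%). In UACC62R the numbers were 0 and 1 (background 0.38% and 0.286%), then 2 and 4 (6.48% and 8.23%). These counts and the medians that follow include CHPF2 and CHSY3, whose values chose them, so no group result is read from them. The median log2 fold change of the 6 was -0.543 at 6 h and -0.769 at 24 h in UACC62P, and -0.39 and -0.923 in UACC62R, where the medians over all genes lay between -0.002 and 0.006. Chondroitin polymerization is carried out by complexes of CHSY1, CHSY3, CHPF and CHPF2, which add glucuronic acid and N-acetylgalactosamine in turn. Per kilobase of exon, an approximate scale for comparing genes, the level at 0 h was 139 CPM in UACC62P and 144 CPM in UACC62R for CHPF, 39.7 and 66.7 CPM for CHPF2, 21.8 and 18.1 CPM for CHSY1, and 2.01 and 1.38 CPM for CHSY3.

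CHPF2 (ENSG00000033100), one of these polymerizing partners, was listed because of its earlier values in these libraries, so they are given with no test. It stood at 169 and 164 CPM in untreated UACC62P, 99.4 CPM at 2 h, 76.7 and 68.1 CPM at 6 h, and 78.0 and 90.1 CPM at 24 h. In UACC62R the levels were 286 and 275 CPM at 0 h, 179 and 196 CPM at 2 h, 110 and 114 CPM at 6 h, and 126 and 118 CPM at 24 h. In both lines every treated library lay below both untreated libraries, with the lowest levels at 6 h, and UACC62R lay above UACC62P at each time. The log2 fold changes against 0 h at 2, 6 and 24 h were -0.75 ± 0.11, -1.20 ± 0.09 and -0.99 ± 0.09 in UACC62P and -0.58 ± 0.09, -1.32 ± 0.09 and -1.20 ± 0.09 in UACC62R. With the left-out library put back (238 CPM, on a scale set over 16 libraries), the value at 2 h in UACC62P became 0.01.

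CHPF (ENSG00000123989), its paralog, moved later. CHPF stood at 526 and 409 CPM in untreated UACC62P, 409 CPM at 2 h, 385 and 272 CPM at 6 h, and 244 and 233 CPM at 24 h. UACC62R held 498 and 468 CPM at 0 h, 499 and 499 CPM at 2 h, 346 and 378 CPM at 6 h, and 246 and 202 CPM at 24 h. At 2 h both lines were still at the edge of the untreated range, and by 24 h all treated libraries were below it. CHPF fell at 24 h by 0.97 ± 0.15 in UACC62P (adjusted p = 0.00177, edgeR) and by 1.11 ± 0.15 in UACC62R (adjusted p = 0.000209, edgeR) on the log2 scale, in every fit that left out 1 library. At 6 h the values were -0.51 ± 0.14 and -0.42 ± 0.14, which were not called; both passed with the replicate block (adjusted p = 0.00527 and 0.0377, edgeR), and the first also in DESeq2 (adjusted p = 0.0196). From 6 to 24 h CHPF fell in UACC62R by 0.69 ± 0.15 (adjusted p = 0.00692, edgeR), a call lost without 6 h replicate 2 (adjusted p = 0.0614).

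CHSY1 (ENSG00000131873), which carries both transferase activities of the polymerase, changed less. Untreated UACC62P held 124 and 119 CPM, and the later libraries held 86.7 CPM at 2 h, 80.4 and 82.2 CPM at 6 h and 83.2 and 80.5 CPM at 24 h. In UACC62R CHSY1 stood at 111 and 90.5 CPM at 0 h, 97.5 and 78.7 CPM at 2 h, 85.2 and 71.3 CPM at 6 h, and 68.0 and 52.9 CPM at 24 h. The UACC62P libraries were at a flat lower level from 2 h on, whereas those of UACC62R overlapped the untreated range at 2 h and lay below it afterwards. CHSY1 fell in UACC62R at 24 h by 0.74 ± 0.13 (adjusted p = 0.00221, edgeR), without any 1 library too. In UACC62P the falls of 0.58 ± 0.13 at 6 h and 0.57 ± 0.13 at 24 h passed narrowly (adjusted p = 0.0484 and 0.0308, edgeR), and both calls were lost without any 1 of the 4 libraries compared (adjusted p up to 0.272 and 0.207). Its log2 fold change at 6 h in UACC62R, -0.36 ± 0.13, was not called and passed with the replicate block (adjusted p = 0.0249, edgeR).

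CHSY3 (ENSG00000198108), another chondroitin synthase, was expressed at a low level, and its values are again given without a test. It stood at 7.69 and 8.14 CPM in untreated UACC62P, 2.68 CPM at 2 h, 2.79 and 1.37 CPM at 6 h, and 2.83 and 2.62 CPM at 24 h. In UACC62R the values were 4.29 and 6.57 CPM at 0 h, 2.29 and 3.53 CPM at 2 h, 1.25 and 2.47 CPM at 6 h, and 1.92 and 1.81 CPM at 24 h. No treated library reached the untreated range in either line. The log2 fold changes were -1.56 ± 0.44, -1.91 ± 0.34 and -1.54 ± 0.34 in UACC62P and -0.90 ± 0.34, -1.55 ± 0.35 and -1.55 ± 0.35 in UACC62R at 2, 6 and 24 h, with the widest errors of the polymerase genes.

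CSGALNACT2 (ENSG00000169826), which adds the first N-acetylgalactosamine and so commits a linker to chondroitin, went the other way. In UACC62P it stood at 22.5 and 21.4 CPM at 0 h, 27.0 CPM at 2 h, 31.1 and 32.8 CPM at 6 h, and 51.7 and 49.9 CPM at 24 h. UACC62R held 18.7 and 24.6 CPM at 0 h, 22.1 and 25.5 CPM at 2 h, 26.0 and 29 CPM at 6 h, and 54.6 and 51.0 CPM at 24 h. The 4 libraries at 24 h were the highest of all 15. CSGALNACT2 rose at 24 h by 1.21 ± 0.12 in UACC62P (adjusted p = 7.79e-05, edgeR) and by 1.28 ± 0.12 in UACC62R (adjusted p = 1.43e-05, edgeR), calls that held with all 16 libraries and without any 1 library. The rise of 0.54 ± 0.12 at 6 h in UACC62P (adjusted p = 0.0408, edgeR) was lost without any 1 of the 4 libraries (adjusted p up to 0.289). Between 6 and 24 h CSGALNACT2 rose by 0.67 ± 0.12 in UACC62P (adjusted p = 0.0199) and 0.94 ± 0.12 in UACC62R (adjusted p = 0.000245, edgeR), and the first of these was lost without any 1 library (adjusted p up to 0.178).

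CSGALNACT1 (ENSG00000147408), the other initiating transferase, differed between the lines more than it did over time. It stood at 106 and 103 CPM in untreated UACC62P and at 132 and 135 CPM after 24 h. In UACC62R it stood at 26.8 and 26.0 CPM at 0 h and at 39.6 and 33.3 CPM after 24 h. The 24 h libraries lay above the untreated ones in both lines. It rose in UACC62R by 0.47 ± 0.10 (adjusted p = 0.0065, edgeR), a call lost without 0 h replicate 2 (adjusted p = 0.0627) or 24 h replicate 1 (adjusted p = 0.0821). In UACC62P the value of 0.35 ± 0.10 (adjusted p = 0.0566, edgeR) passed with the replicate block (adjusted p = 0.00905) and in DESeq2 (adjusted p = 0.0197).

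**Figure D2:**
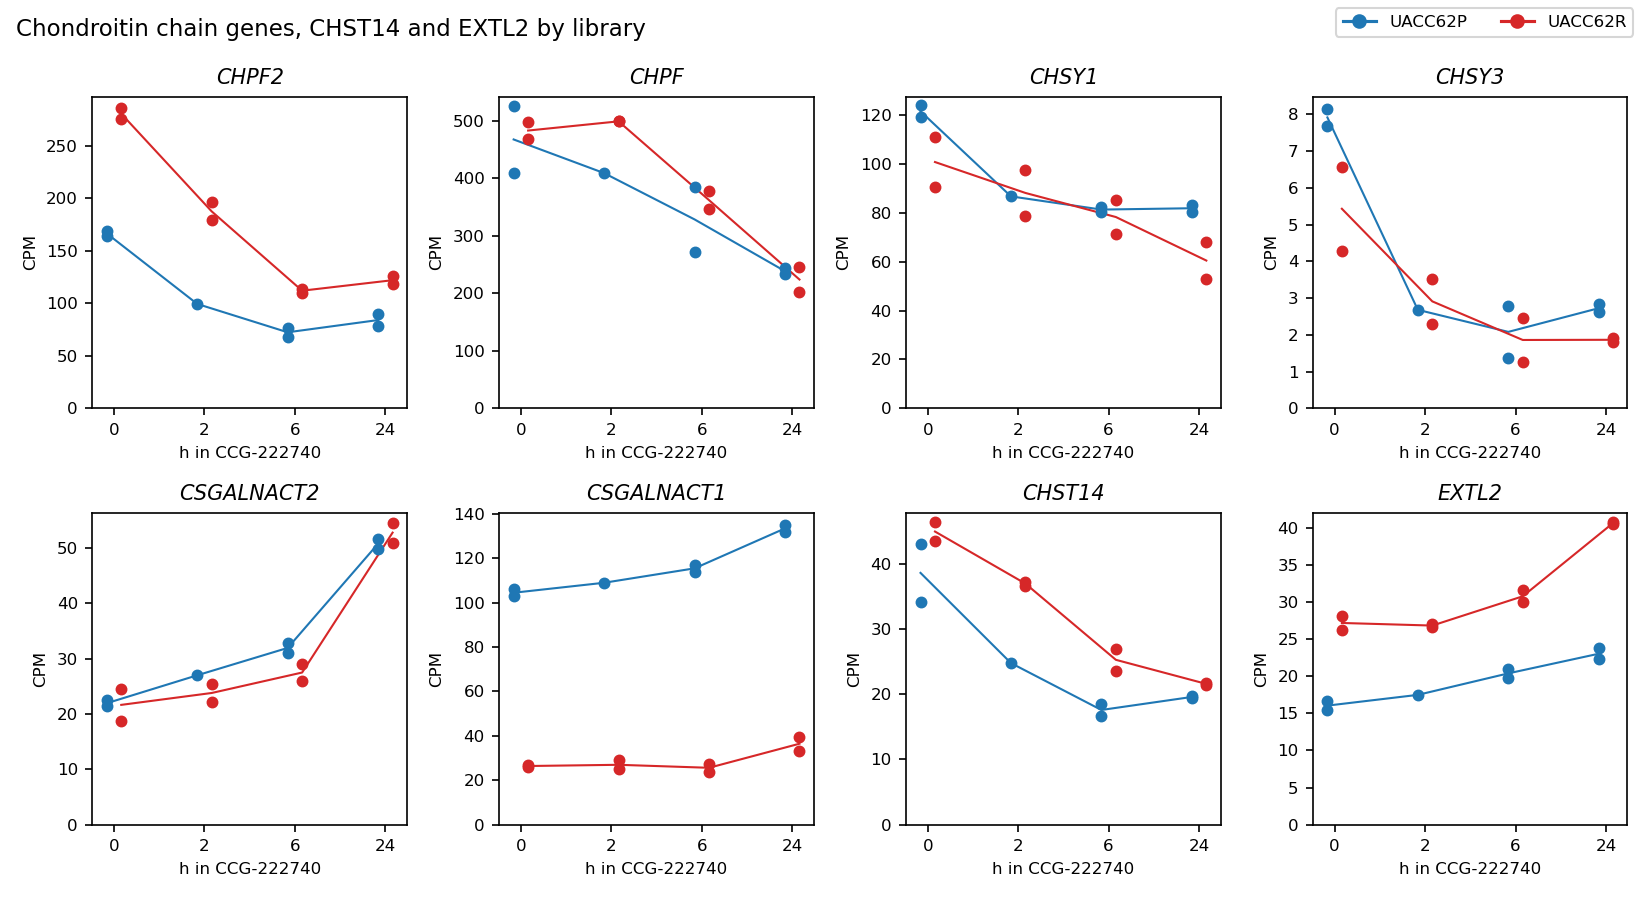
CPM (vertical axes, from 0) of the 6 chondroitin chain genes, CHST14 and EXTL2 against hours in CCG-222740 (times drawn at equal steps), with 1 point per library and lines through the group means; UACC62P is blue and UACC62R red. CHPF2 went from 169 and 164 CPM to 76.7 and 68.1 CPM by 6 h in UACC62P, whereas CSGALNACT2 reached 49.9 to 54.6 CPM at 24 h in both lines.

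Among the 8 genes that modify chondroitin and dermatan sulfate, CHST14 (ENSG00000169105) was the only one called in UACC62P (1 of 7 with reads at 6 h and at 24 h). The share of all genes called lower there was 0.671% at 6 h and 1.65% at 24 h. CHST14 places a sulfate on N-acetylgalactosamine beside iduronic acid, a mark of dermatan sulfate. It stood at 43.1 and 34.2 CPM in untreated UACC62P, 24.8 CPM at 2 h, 18.5 and 16.7 CPM at 6 h, and 19.4 and 19.8 CPM at 24 h. The UACC62R libraries held 46.4 and 43.6 CPM at 0 h, 36.7 and 37.3 CPM at 2 h, 23.6 and 27.0 CPM at 6 h, and 21.8 and 21.4 CPM at 24 h. No treated library overlapped the untreated ones. CHST14 fell by 1.14 ± 0.11 at 6 h and 0.98 ± 0.11 at 24 h in UACC62P (adjusted p = 0.000155 and 0.000255, edgeR). In UACC62R it fell by 0.83 ± 0.11 at 6 h and 1.06 ± 0.11 at 24 h (adjusted p = 0.0019 and 3.62e-05, edgeR). All 4 calls held in every fit that left out 1 library.

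In UACC62R at 24 h, 6 of the 8 modifying genes were called, 3 higher and 3 lower (background 6.48% and 8.23%), where the group median was 0.163. Beside CHST14, the chondroitin 6-O-sulfotransferase CHST3 fell from 83.4 and 100 CPM to 59.3 and 55.6 CPM (log2 fold change -0.67 ± 0.13, adjusted p = 0.00416, edgeR), a call lost without 0 h replicate 2 (adjusted p = 0.0631). The 4-O-sulfotransferase CHST11 fell by 0.48 ± 0.14 (adjusted p = 0.0385), a call that held only without 24 h replicate 1 and was lost without each of the other 3 libraries (adjusted p up to 0.174). Its paralog CHST12, with the same activity, rose by 0.42 ± 0.11 (adjusted p = 0.0205), a call lost without 0 h replicate 2 or 24 h replicate 1 (adjusted p = 0.189 and 0.186). CHST7, a 6-O-sulfotransferase like CHST3, rose by 0.59 ± 0.19 (adjusted p = 0.0482, edgeR), which was lost without any 1 library (adjusted p up to 0.286). In this line at 24 h CHST3 and CHST7 thus had opposite signs, as did CHST11 and CHST12, but each of these calls depended on the library left out.

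DSE, an epimerase that turns glucuronic into iduronic acid and so makes dermatan from chondroitin, was a low transcript that marked UACC62R. It stood at 0.818 to 1.26 CPM in the 7 UACC62P libraries. UACC62R held 4.88 and 5.92 CPM at 0 h, 6.75 and 7.09 CPM at 2 h, 5.90 and 6.77 CPM at 6 h, and 8.80 and 9.12 CPM at 24 h. All UACC62R libraries lay above all UACC62P libraries. DSE was 2.32 ± 0.21 higher in UACC62R at 0 h (adjusted p = 3.99e-07, edgeR) and rose there by 0.73 ± 0.18 by 24 h (adjusted p = 0.0122), a call lost without 0 h replicate 1 or 24 h replicate 1 (adjusted p = 0.0908 and 0.0548). CHST15, which adds a further sulfate to chondroitin 4-sulfate, had no read in any of the 7 UACC62P libraries. In UACC62R its level was 1.09 and 1.10 CPM at 0 h, 1.28 and 0.662 CPM at 2 h, 1.89 and 0.779 CPM at 6 h, and 1.46 and 1.31 CPM at 24 h. With 68 reads against 0 at 0 h and a floor of 3 reads over the group, it was at least 20.6-fold higher in UACC62R. UST, a uronyl 2-O-sulfotransferase, passed in neither line over time.

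The log2 fold changes of the 4 heparan chain genes at 24 h spanned 0 to 0.52 in UACC62P and 0.06 to 0.58 in UACC62R. EXT1 and EXT2 form the heparan polymerase, and EXTL2 and EXTL3 transfer the N-acetylglucosamine that begins the chain or, for EXTL2, can end it. Of the 4, 1 rose and none fell at 24 h in UACC62P (median 0.205, background 2.19% and 1.65%). In UACC62R 2 rose and none fell (median 0.282, background 6.48% and 8.23%). EXTL2 (ENSG00000162694) stood at 15.4 and 16.7 CPM in untreated UACC62P, 17.5 CPM at 2 h, 19.8 and 21.0 CPM at 6 h, and 22.3 and 23.8 CPM at 24 h. The level in UACC62R was 26.3 and 28.1 CPM at 0 h, 27.1 and 26.6 CPM at 2 h, 30 and 31.6 CPM at 6 h, and 40.8 and 40.6 CPM at 24 h. The 6 and 24 h libraries lay above the untreated ones in each line. EXTL2 rose at 24 h by 0.52 ± 0.09 in UACC62P (adjusted p = 0.00525, edgeR) and 0.58 ± 0.09 in UACC62R (adjusted p = 0.000553, edgeR); the first was lost without 0 h replicate 1 or 24 h replicate 2 (adjusted p = 0.059 and 0.0601). At 6 h in UACC62P the value of 0.35 ± 0.09 passed only with the block (adjusted p = 0.0181, edgeR). EXT2 rose by 0.31 ± 0.07 in UACC62R at 24 h (adjusted p = 0.00707), a call lost without 0 h replicate 2 or 24 h replicate 1 (adjusted p = 0.061 and 0.0522). In UACC62P EXT2 had a value of 0.23 ± 0.06 with the replicate block and passed there (adjusted p = 0.0111, edgeR) and in DESeq2 (adjusted p = 0.0354). EXT1 passed in UACC62R with the block (0.25 ± 0.07, adjusted p = 0.014, edgeR).

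None of the 7 heparan-modifying genes was called against 0 h in either line at any time, with edgeR or with DESeq2 in the same 15 libraries. The group comprises the deacetylase and N-sulfotransferases NDST1 and NDST2, the epimerase GLCE, and the O-sulfotransferases HS2ST1, HS3ST1, HS6ST1 and HS6ST2. With the block, GLCE passed at 24 h in both lines, with values of 0.29 ± 0.07 in UACC62P (adjusted p = 0.0152) and 0.24 ± 0.07 in UACC62R (adjusted p = 0.0185, edgeR). HS6ST2, which adds 6-O-sulfate, illustrates a gene with a wide gap between the lines and no call against 0 h. It ranged from 95.0 to 104 CPM over the 7 UACC62P libraries and from 5.23 to 7.64 CPM over the 8 of UACC62R. Within UACC62R the 2 h libraries (5.65 and 5.99 CPM) and 24 h libraries (5.23 and 6.64 CPM) lay below the untreated ones (6.79 and 7.64 CPM). Those at 6 h overlapped them. HS3ST1, the sulfotransferase of the anticoagulant form of heparan sulfate, ranged from 1.93 to 4.09 CPM in UACC62P and from 0.0291 to 0.288 CPM in UACC62R, where it had 5 and 3 reads at 0 h and 1 and 1 at 24 h, too few for a response to be read. NDST2 shares 82.9% of its exon length with an overlapping gene model on the same strand, so its level is uncertain.

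Of the 3 precursor genes, 2 rose in UACC62R at 24 h (6.48% of all genes did) and none was called in UACC62P. UGDH, which makes UDP-glucuronic acid, went from 56.7 and 66.8 CPM to 77.3 and 84.1 CPM (0.39 ± 0.10, adjusted p = 0.0143, edgeR). SLC35B2, the Golgi transporter of the sulfate donor PAPS, went from 192 and 174 CPM to 248 and 218 CPM (0.35 ± 0.08, adjusted p = 0.00767, edgeR). Both calls rested on particular libraries: UGDH lost its call without 0 h replicate 1 (adjusted p = 0.108) or 24 h replicate 2 (adjusted p = 0.0692), and SLC35B2 without 0 h replicate 2 (adjusted p = 0.104) or 24 h replicate 1 (adjusted p = 0.12). With the block UGDH also passed in UACC62P at 24 h (0.26 ± 0.06, adjusted p = 0.0144). UXS1, which turns UDP-glucuronic acid into UDP-xylose for the linkage region, was called in neither line.

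The hyaluronan synthases showed a late fall in UACC62R. HAS2 (ENSG00000170961) stood at 6.82 and 7.17 CPM in untreated UACC62P, 5.88 CPM at 2 h, 8.58 and 6.87 CPM at 6 h, and 8.73 and 5.37 CPM at 24 h. In UACC62R it stood at 24.2 and 25.8 CPM at 0 h, 21.6 and 20.4 CPM at 2 h, 29.6 and 34.5 CPM at 6 h, and 9.06 and 11.6 CPM at 24 h. The UACC62P groups overlapped throughout, apart from the single lower library at 2 h, whereas in UACC62R both 6 h libraries were the highest and both 24 h libraries the lowest. HAS2 fell in UACC62R by 1.27 ± 0.18 at 24 h against 0 h (adjusted p = 0.000401, edgeR) and by 1.63 ± 0.18 against 6 h (adjusted p = 0.000102, edgeR). In UACC62P the value at 24 h was 0.01 ± 0.20. The calls in UACC62R held in every fit that left out 1 library.

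HAS3 (ENSG00000103044), which makes shorter hyaluronan chains, followed in part. It stood at 7.93 and 8.61 CPM in untreated UACC62P, 7.30 CPM at 2 h, 9.48 and 7.61 CPM at 6 h, and 6.65 and 5.94 CPM at 24 h. In UACC62R it stood at 8.37 and 9.30 CPM at 0 h, 6.82 and 7.86 CPM at 2 h, 8.11 and 9.11 CPM at 6 h, and 4.97 and 3.96 CPM at 24 h. The 24 h libraries were the lowest in each line. HAS3 fell in UACC62R by 0.99 ± 0.17 at 24 h against 0 h (adjusted p = 0.00126, edgeR) and by 0.95 ± 0.17 against 6 h (adjusted p = 0.00233, edgeR), also without any 1 library. Its value in UACC62P at 24 h was -0.39 ± 0.16 and was not called.

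**Figure D3:**
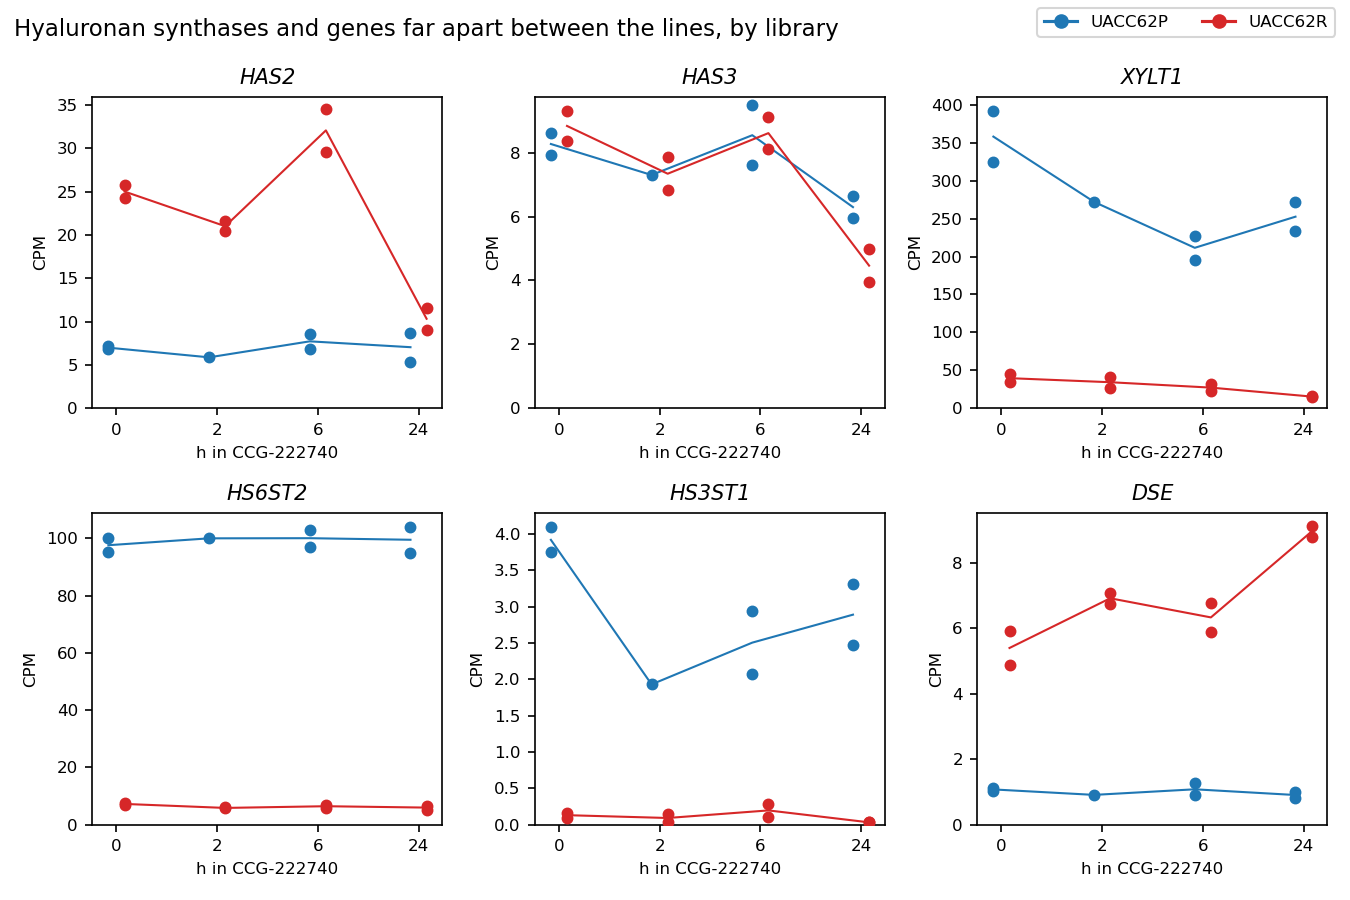
CPM (vertical axes, from 0) of HAS2, HAS3, XYLT1, HS6ST2, HS3ST1 and DSE, against hours in CCG-222740 (times drawn at equal steps), 1 point per library with lines through the group means; UACC62P is blue and UACC62R red. HAS2 in UACC62R dropped from 29.6 and 34.5 CPM at 6 h to 9.06 and 11.6 CPM at 24 h, while UACC62P stayed between 5.37 and 8.73 CPM.

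Between 6 and 24 h, 1 member rose and none fell in UACC62P (background 0.345% and 0.39%), and 5 rose and 6 fell in UACC62R (background 5.18% and 7.39%). With the replicate block the called members became 4 in UACC62P and 17 in UACC62R, where 5.05% and 22.1% of all genes were called. The count in UACC62R was 6 without 6 h replicate 2 and 5 without 24 h replicate 1, and the 1 call in UACC62P was lost without any 1 library. The calls in UACC62R that held in every fit without 1 library were those of CSGALNACT2, HAS2 and HAS3. Scaling by library size alone gave 7 rising and 4 falling members in UACC62R in place of 5 and 6. The shares of all genes called with this scaling and without 1 library are not given here. XYLT1 fell over this interval by 0.81 ± 0.21 (adjusted p = 0.0216, edgeR), a call lost without 6 h replicate 2 or 24 h replicate 1 (adjusted p = 0.234 and 0.0938).

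The lines differed widely before CCG-222740 was added. Vemurafenib in the medium is stated for untreated UACC62R, so line and vemurafenib cannot be told apart in this comparison. At 0 h, 15 members were higher and 11 lower in UACC62R, 26 of 36, where 27.8% of all genes tested were called higher and 26.1% lower. CHST15 and HS3ST1 had fewer than 10 reads in each untreated library of one line and passed the low-count filter only through the other, so they had to differ. Among the 34 remaining members 14 were higher and 10 lower, and among the 15834 genes left by the same rule 25.1% were higher and 30.3% lower. The median log2 fold change was 0.086 over all 36 members, against 0.022 for all genes. By role, 3 linkage genes were higher and 1 was lower, 1 and 1 chondroitin chain genes, 5 and 2 chondroitin and dermatan modifiers, 3 and 0 heparan chain genes, 2 and 4 heparan modifiers, 0 and 3 precursor genes, and 1 and 0 hyaluronan synthases. These role counts include CHST15 (a higher chondroitin modifier), HS3ST1 (a lower heparan modifier) and CHPF2 (the higher chondroitin chain gene), from whose calls nothing is read. Of the 26 calls, 23 held in every fit without 1 library, those of CHST15, HS3ST1 and CHPF2 among them. The exceptions were B3GALT6, HS2ST1 and HS6ST1: B3GALT6 was lost without UACC62P 0 h replicate 2 or UACC62R 0 h replicate 2 (adjusted p = 0.0605 and 0.0697), HS2ST1 without any of these or UACC62R 0 h replicate 1 (adjusted p up to 0.106), and HS6ST1 without either UACC62P library or UACC62R 0 h replicate 2 (adjusted p up to 0.25).

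The widest gaps among members with more than a few reads in both lines were those of HS6ST2 and XYLT1, both lower in UACC62R. HS6ST2, at 100 and 95.2 CPM against 6.79 and 7.64 CPM, differed by -3.76 ± 0.12 (adjusted p = 4.93e-12, edgeR). XYLT1 differed by -3.17 ± 0.21 (adjusted p = 9.97e-09), whereas its paralog XYLT2 was higher by 0.73 ± 0.10 (adjusted p = 3e-05, edgeR). Per kilobase of exon, XYLT1 stood above XYLT2 in UACC62P, at 32.5 against 11.1 CPM, and below it in UACC62R, at 3.61 against 18.4 CPM. CSGALNACT1 was lower by -1.99 ± 0.10 (adjusted p = 6.83e-10), while CSGALNACT2 did not pass (-0.02 ± 0.12). All 3 precursor genes were lower, UXS1 by -0.81 ± 0.09, UGDH by -0.75 ± 0.10 and SLC35B2 by -0.44 ± 0.08.

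Among the higher genes, EXT1, part of the heparan polymerase, stood at 269 and 245 CPM in UACC62R against 65.8 and 69.5 CPM (1.92 ± 0.09, adjusted p = 3e-10, edgeR). HAS2 was higher by 1.84 ± 0.19 (adjusted p = 1.41e-06, edgeR), while HAS3 did not pass (0.10 ± 0.16). Sulfotransferases split within a type here as well: CHST12 was higher by 0.57 ± 0.11 and CHST11 lower by -0.91 ± 0.14 (adjusted p = 0.000666 and 7.73e-05, edgeR). CHST3 and CHST7, of the other type, were both higher, by 0.99 ± 0.14 and 1.03 ± 0.20. CHPF2 was higher by 0.75 ± 0.09, again given with no test, while CHPF (0.05 ± 0.14) did not pass.

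**Figure D4:**
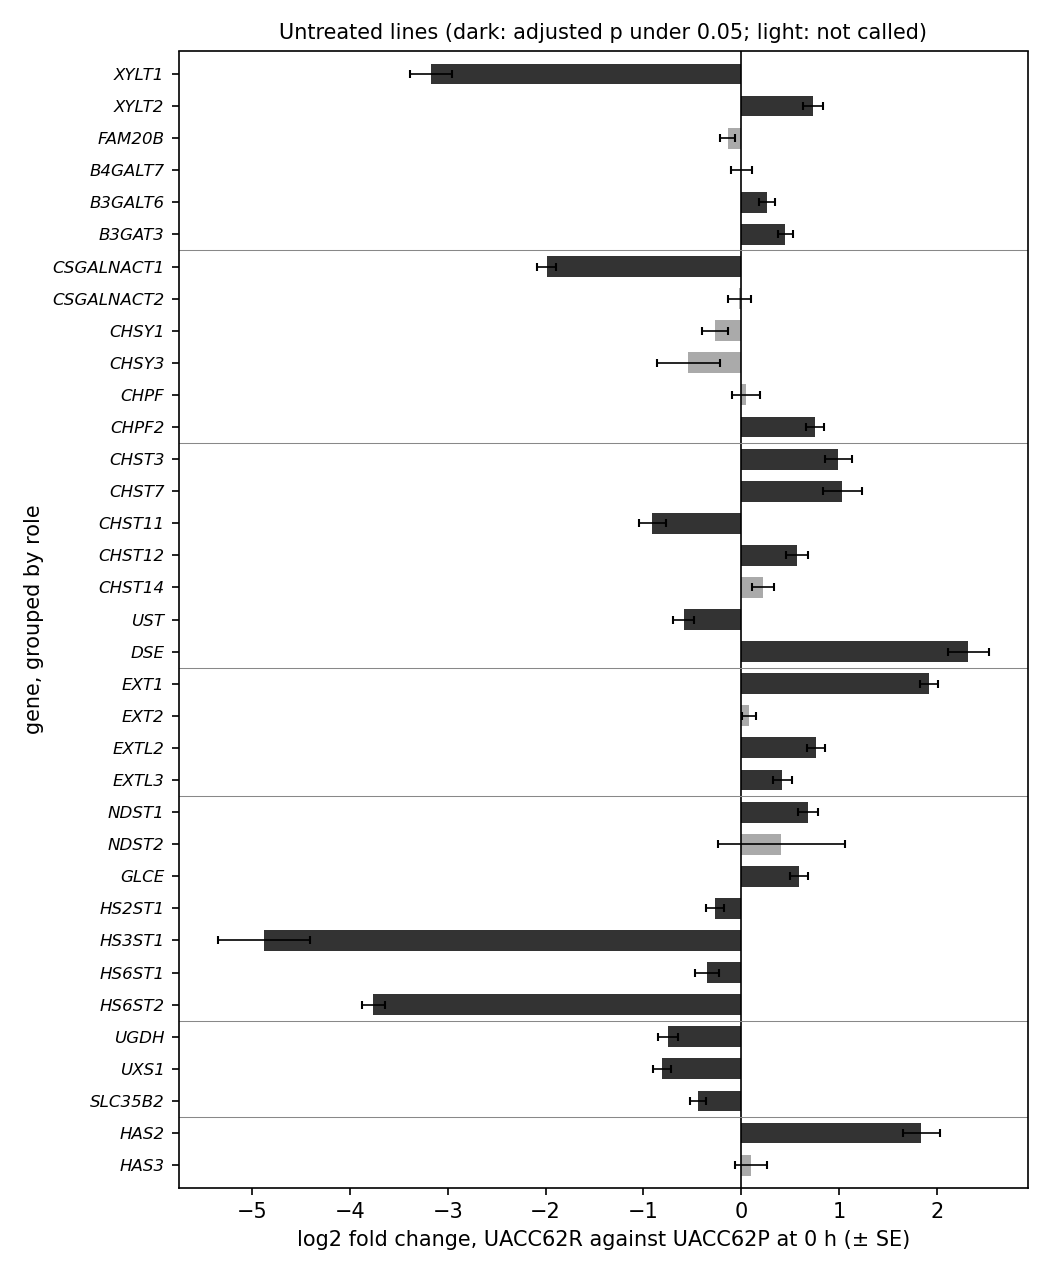
Log2 fold change (horizontal axis) of UACC62R against UACC62P at 0 h for each member with reads in both lines (vertical axis), with bars of 1 standard error; CHST15, with no read in UACC62P, is left out. HS3ST1 lies farthest to the lower side but had 5 and 3 reads in UACC62R, HS6ST2 and XYLT1 follow at -3.76 and -3.17, and DSE, EXT1 and HAS2 farthest to the higher side at 2.32, 1.92 and 1.84.

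Whether the response itself differed between the lines was tested as the change from 0 h in UACC62R minus that in UACC62P. No member with reads in both lines was called, at 6 h (background 0.00493%) or at 24 h (0.562%). At an unadjusted p under 0.05 there were 0 members at 6 h and 7 at 24 h, where 4.69% and 10.8% of all genes tested lay under it. At 24 h HAS2 came nearest, at -1.29 ± 0.27 (adjusted p = 0.0546, edgeR). Over 14 alternatives this value ranged from -1.59 to -0.91 and its adjusted p from 4.31e-06 to 1; it passed with the replicate block (adjusted p = 0.00663) and in DESeq2 (adjusted p = 0.00115), and without UACC62P 24 h replicate 2 or UACC62R 24 h replicate 2 (adjusted p = 0.0313 and 0.0347). With the block, under which 4.05% of all genes were called, CHST3 (-0.64 ± 0.17, adjusted p = 0.0404) and CHST12 (0.47 ± 0.11, adjusted p = 0.0241) passed as well; DESeq2 called XYLT1 (-0.85, adjusted p = 0.0471) and CHST3 (-0.64, adjusted p = 0.0493) beside HAS2. DSE (0.98 ± 0.31, adjusted p = 0.212) and HAS3 (-0.59 ± 0.23, adjusted p = 0.356) did not pass in edgeR.

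The responses of the lines share no library, but they are not independent, and same-numbered replicates deviated together. In both lines the change from 0 h also holds any difference of batch, vehicle or time in culture between untreated and treated libraries. A difference of that kind common to both lines could give matching signs and correlated values without the compound, and its part was not tested. At 24 h, 28 of 35 members had the same sign in both lines, with r = 0.77 across genes; over the 14565 genes whose mean log2 CPM was 0 or more the share was 69.7% and r was 0.38. At 6 h the member count was 27 of 35 with r = 0.66, against 65.2% and r = 0.27. The 35 members include CHPF2 and CHSY3, whose values chose them, and NDST2, whose mean log2 CPM lies under that cut. Their values are thus not read as closer agreement than over all genes. The counts and r are descriptions across genes, which are not independent replicates. CSGALNACT2 at 24 h (1.21 and 1.28), CHPF (-0.97 and -1.11), CHST14 (-0.98 and -1.06) and EXTL2 (0.52 and 0.58) had nearly equal values in UACC62P and UACC62R, and the differences of response were 0.07 ± 0.17, -0.14 ± 0.20, -0.08 ± 0.16 and 0.06 ± 0.13. HAS2 (0.01 and -1.27), XYLT1 (-0.50 and -1.36) and DSE (-0.25 and 0.73) were the members that lay farthest apart among those with more than a few reads.

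Further genes of the pathway came from 4 lists, also drawn up with earlier results of these data known. Calls of single genes in these lists were not checked under the alternatives or without 1 library. Of 16 other synthesis enzymes, 10 had enough reads to be tested. Over time, HS3ST3B1, another heparan 3-O-sulfotransferase, was the one called against 0 h: it fell at 24 h by 0.52 ± 0.14 in UACC62P (adjusted p = 0.0458) and by 0.62 ± 0.14 in UACC62R (adjusted p = 0.009, edgeR). Between the lines 5 of the 10 were higher and 4 lower in UACC62R, beside 27.8% and 26.1% of all genes. Of the 5, NDST3, NDST4 and HS6ST3 had at most 1 read in each untreated UACC62P library and passed the filter only through UACC62R; without genes of under 10 reads in a line, 2 were higher and 4 lower of 6. EXTL1, an exostosin-like transferase, stood at 114 and 114 CPM in UACC62P against 1.12 and 0.751 CPM.

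Of 15 genes for nucleotide sugars and sulfate donors, 4 rose and none fell in UACC62P at 24 h (background 2.19% and 1.65%). In UACC62R 2 rose and 2 fell (background 6.48% and 8.23%). GFPT1, the first enzyme of the hexosamine pathway, and PGM3, a later one, rose in both lines: GFPT1 by 0.58 ± 0.09 and 0.54 ± 0.09, PGM3 by 0.62 ± 0.11 and 0.49 ± 0.11 (adjusted p = 0.00305, 0.00152, 0.00533 and 0.00673, edgeR). The next enzyme of that pathway, UAP1, and the isoenzyme GFPT2 fell in UACC62R, by 0.56 ± 0.11 and 0.50 ± 0.14. The sulfate transporter SLC26A2 stood at 243 and 266 CPM in untreated UACC62P and at 377 and 412 CPM at 24 h, a rise of 0.63 ± 0.09 (adjusted p = 0.000991). In UACC62R SLC26A2 stood at 75.3 and 79.0 CPM and then 72.4 and 76.5 CPM, and the response differed between the lines by -0.68 ± 0.12 (adjusted p = 0.027, edgeR).

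Of 30 proteoglycan core proteins 28 were tested. At 24 h 2 were higher and 2 lower in UACC62P (background 2.19% and 1.65%), and 3 each way in UACC62R (background 6.48% and 8.23%). The syndecan SDC3 stood at 1430 and 1100 CPM in untreated UACC62P and 586 and 527 CPM at 6 h, a fall of 1.19 ± 0.24 (adjusted p = 0.0256, edgeR). SDC4 stood at 172 and 192 CPM in untreated UACC62R and 104 and 102 CPM at 24 h, and at 93.3 and 95.7 CPM and then 108 and 107 CPM in UACC62P. Its response differed between the lines by -1 ± 0.13 (adjusted p = 0.00645, edgeR). CD44, the hyaluronan receptor, rose at 24 h by 0.29 ± 0.07 in UACC62P and 0.54 ± 0.07 in UACC62R (adjusted p = 0.0447 and 0.000288, edgeR). The phosphatase PTPRZ1, a chondroitin sulfate carrier, rose by 0.61 ± 0.16 and 1.47 ± 0.25 (adjusted p = 0.0448 and 0.00146, edgeR). Untreated, PTPRZ1 stood at 159 and 140 CPM in UACC62P but at only 2.24 and 1.57 CPM in UACC62R. Between the lines at 0 h, 12 of the 28 core proteins were higher and 8 lower in UACC62R, beside 27.8% and 26.1% of all genes; ACAN, NCAN and SPOCK2 had fewer than 10 reads in at least 1 line, and without them 12 were higher and 7 lower of 25.

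Of 21 degrading and remodelling genes 20 were tested. At 6 h 0.671% of all genes were called lower in UACC62P and 0.286% in UACC62R. NAGLU and SGSH, lysosomal enzymes that take heparan sulfate apart, were the 2 called at 6 h, in both lines: NAGLU fell by 0.95 ± 0.15 in UACC62P and 1.06 ± 0.15 in UACC62R, and SGSH by 0.75 ± 0.09 and 0.81 ± 0.09 (adjusted p = 0.0045, 0.00264, 0.00115 and 0.000687, edgeR). They remained lower at 24 h, NAGLU by -0.95 ± 0.15 and -0.90 ± 0.15 and SGSH by -0.59 ± 0.09 and -0.55 ± 0.09. CEMIP, a factor that degrades hyaluronan, rose at 24 h by 0.62 ± 0.15 in UACC62P and 0.68 ± 0.15 in UACC62R (adjusted p = 0.0346 and 0.00753, edgeR). At 0 h 12 of the 20 were higher and 5 lower in UACC62R, where 27.8% and 26.1% of all genes were.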

How the data were processed

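Raw read counts per Ensembl gene were deposited by the authors, 1 table per library, with no normalization and 5 summary lines that stayed out of sizes and tests. The submitters' processing notes name HISAT2 2.1.0, HTSeq 0.6.1, Trimmomatic 0.33, bcl2fastq 2.19.0, FastQC 0.11.5 and build hg19. Whether counting used strand is not given there, which leaves genes with an opposite-strand overlap uncertain. Unaligned reads made up 6.12 to 17.8% of a library and reads with several alignments 18.6 to 22%; among unique alignments, 3.31 to 4.66% fell outside genes and 5.99 to 6.81% were ambiguous.

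Counts of 15 libraries were fitted with edgeR 4.0.16 (limma 3.58.1, R 4.3.3) with 1 coefficient per group, TMM scaling, filterByExpr and 7 residual degrees of freedom. UACC62P at 2 h had 1 library, assumed to vary like the other groups. Standard errors are log2 fold changes over the square root of the F statistic. The 6 comparisons with 0 h share each line's 0 h libraries. Alternatives were 16 libraries, RLE or library size scaling, no filter on low counts, DESeq2 1.42.0, a replicate block and leaving out each library. Counts without CHPF2 and CHSY3, and without genes of fewer than 10 reads in both untreated libraries of a line, were added after seeing the data. Same-numbered libraries deviated together in all 21 pairs of groups (correlations 0.17 to 0.72 over 8273 genes). Their pairing was thus read from the data and not a label. It entered only the replicate block, and the main fit held no term for it. The scripts were tested on simulated counts. Exon lengths came from GENCODE 29 (GRCh38) and are approximate for hg19 counts.

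Members, lists and the rule for named genes were chosen with earlier results of these data known. Levels per library were given for members called in at least 2 of the 6 comparisons with 0 h or in a response difference, for the 5 widest called differences between the lines, and for CHPF2, CHSY3, HAS2 and HAS3; up to 4 called genes were named per other list. Some genes that the rule would name are not reported here.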

Additional observations from a re-analysis of the deposited data

How the results depend on the processing

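Among values of single genes under the alternatives, 3903 kept their side of the threshold, 132 lost their call and 74 gained one. A change of sign was counted only for values called in the main fit, of which 1 reversed. That was CHPF2 at 2 h in UACC62P, from -0.75 to 0.01 with all 16 libraries, which put a library resembling UACC62R into the group. With 16 libraries the members called became 0, 0 and 1 in UACC62P and 0, 0 and 4 in UACC62R at 2, 6 and 24 h, and 0 and 2 for 24 h against 6 h in UACC62P and UACC62R. With the replicate block, which pairs same-numbered libraries, they became 8 and 13 in UACC62P at 6 and 24 h, 5 in UACC62R at 6 h, 4 and 17 for 24 h against 6 h, and 3 for the response difference at 24 h; no other count moved by over 1.5 times. Without a filter on low counts they became 4 in UACC62P at 2 h, 7 in UACC62R at 6 h, 3 for 24 h against 6 h in UACC62P and 3 for the response difference at 24 h; DESeq2 gave 2 and 3 for the last pair. The cause of these shifts was not tested. Outside the main fit and the block, shares of all genes called are not given here. The counts of other settings are thus not read as particular to the members. Leaving out 1 library gave 0 to 0 at 2 h in either line, 2 to 4 and 4 to 5 in UACC62P at 6 and 24 h, 11 to 17 in UACC62R at 24 h, 0 to 0 and 5 to 9 for 24 h against 6 h, and 0 to 1 for the response difference at 24 h.

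Library size scaling moved the median of all genes between the lines at 0 h to 0.102, from 0.022 with TMM, and called 17 members higher and 9 lower there; at 24 h in UACC62P it called 4 higher and 5 lower, in place of 2 and 5. Levels near or under 1 CPM rest on few reads, which limits what can be read from HS3ST1 in UACC62R, CHST15 and NDST2 over time; HS3ST1 passed for 24 h against 6 h in UACC62R with the block (-2.5, adjusted p = 0.0436, edgeR), on at most 9 reads per library.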
